A study of Mus musculus with 6 samples.

Results

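The genes Serpina10, Lrg1, Itih4, Kng1, Serpina1c, Cp and Ahsg encode proteins that the liver secretes into blood plasma, and they are described here in the pancreas of mice without working Cftr. Cftr is the epithelial chloride and bicarbonate channel lost in cystic fibrosis. The 7 genes were selected on their difference between the CF and control arrays of this series, so that difference is given as a description and carries no test of its own. They are 7 of the 8252 genes that the platform annotation names from a probe set with a single symbol. It gave them 8 of the 12488 probe sets on the array, and 6 of those 8 were among the 7739 bright enough to be tested. Serpina1c had 2 probe sets and the other genes 1 each. Both Ahsg and the second Serpina1c probe set were too dim to be tested.

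Pancreas RNA was hybridised to 6 one-colour arrays. The control group held 3 mice of genotype CFTR+/+ and the CF group 3 mice of genotype CFTR-/-. All 6 mice were gastrin+/- males of 56 to 58 days, on a background of 95% black6 and 5% 129Sv, and all received Peptamen, a peptide-based diet, from day 10. Each array came from a single mouse, and the label of control replicate 1 speaks of the entire pancreas. Values are intensities on a linear scale, with array medians of 207.8 to 234.4, and the number of arrays limits their precision. The 13 acinar cell marker genes on the array had summed intensities of 746166 to 1080640. Of 3 Cftr probe sets only the brightest could be tested. It read 318, 223 and 338.5 in controls and 466.9, 313.8 and 364.2 in CF, and it checks no label, because its position in relation to the disruption is not known here. The brightest Gast probe set, too dim to be tested, averaged 148 in controls and 99.2 in CF.

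Most plasma proteins are made by hepatocytes, and many belong to the acute phase response, in which IL-6 acting through STAT3, together with C/EBP and HNF factors, changes their transcription during injury or inflammation. Several of the 7 are inhibitors of proteases: serpins trap a protease in a covalent complex, kininogens hold cystatin domains that block cysteine proteases, and fetuin is a relative of the cystatins. The exocrine pancreas is itself a major source of secreted proteases.

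The bases upstream of the annotated transcription start are printed for 4 of the genes, chosen to show where short motifs of acute phase and liver transcription lie in genes that were higher together. They were read from RefSeq on GRCm38.p6, where 5 of the 7 genes had an entry. Each run holds the 250 bases before the start, 5′ to 3′ on the gene's strand. Capitals mark matches, on either strand, to the STAT motif TTCNNNGAA, the HNF1 core GTTAAT, the C/EBP motif TTNNGNAAT, the TATA box TATAAA and a NF-kappaB motif given by name alone. The windows are Lrg1 at chr17:56121947-56122196 (minus strand), Itih4 at chr14:30886226-30886475 (plus strand), Serpina1c at chr12:103904951-103905200 (minus strand) and the downstream of 2 Cp windows at chr3:19956999-19957248 (plus strand).
Lrg1: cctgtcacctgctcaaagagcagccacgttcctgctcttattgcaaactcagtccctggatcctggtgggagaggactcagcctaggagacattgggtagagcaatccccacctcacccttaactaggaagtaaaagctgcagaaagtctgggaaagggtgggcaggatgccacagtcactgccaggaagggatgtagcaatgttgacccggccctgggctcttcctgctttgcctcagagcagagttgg
Itih4: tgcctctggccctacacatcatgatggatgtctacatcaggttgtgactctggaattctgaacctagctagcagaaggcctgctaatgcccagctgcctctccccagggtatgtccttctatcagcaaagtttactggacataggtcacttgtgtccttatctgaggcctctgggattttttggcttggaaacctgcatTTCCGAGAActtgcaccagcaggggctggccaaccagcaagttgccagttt
Serpina1c: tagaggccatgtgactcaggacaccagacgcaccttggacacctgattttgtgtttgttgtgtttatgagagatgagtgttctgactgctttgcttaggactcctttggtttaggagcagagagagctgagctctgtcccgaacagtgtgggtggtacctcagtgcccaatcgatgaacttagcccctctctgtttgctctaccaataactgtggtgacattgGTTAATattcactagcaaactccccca
Cp: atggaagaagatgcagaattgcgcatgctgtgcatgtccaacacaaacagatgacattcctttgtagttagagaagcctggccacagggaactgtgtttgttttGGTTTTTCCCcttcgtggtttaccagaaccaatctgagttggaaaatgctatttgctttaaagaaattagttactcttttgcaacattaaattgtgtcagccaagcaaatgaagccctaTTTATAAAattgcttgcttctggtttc

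Itih4 held the STAT motif from -51 to -43 relative to its start, and no window of the other matched genes held these letters, while 7.02% of all 32851 RefSeq windows did. The HNF1 core lay from -27 to -22 in Serpina1c and in the upstream Cp window, from -194 to -189, and occurred in 6.43% of all windows. The C/EBP motif was found in Ahsg, from -32 to -24, and in 10.2% of all windows. In the Cp window shown, TATAAA and its reverse complement overlapped between -27 and -20, and 12.4% of all windows held that motif. The same Cp window held the NF-kappaB motif from -146 to -137, as did 17.6% of all windows. The Lrg1 window held none of the 5 motifs. These are matches of letters in a short window, and say nothing of whether a factor binds there.

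Lrg1 showed the widest difference of the 7 genes. It encodes a secreted leucine-rich glycoprotein that in mice modulates TGF-beta signalling in endothelium. Its intensities were 985.1, 63.9 and 535.4 on the control arrays, in the order of replicates 1, 2 and 3 that is kept throughout, against 22780.3, 32910.6 and 12378.1 on the CF arrays. All CF arrays were far above all controls, the lowest CF value being 12.6 times the highest control value. The controls were the more uneven group, with a 15.4-fold range against 2.66-fold in CF. The log2 difference was 6.02 ± 0.87 (SE, n = 3 per group), or 65.1-fold, and was the second largest of the 7739 tested probe sets. It was 4.85 without control replicate 2, the array with the low value, and 6.83 without control replicate 1.

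Among the protease inhibitors, Serpina10 was the most even. It encodes the protein Z-dependent inhibitor of coagulation factor Xa. Control intensities were 615.6, 721.5 and 630.2, and CF intensities 1759.9, 1784 and 1760.5. The groups lay well apart, and the 3 CF values spanned a ratio of only 1.01. The log2 difference was 1.43 ± 0.17 (SE), or 2.70-fold, and stayed between 1.39 and 1.51 whichever array was left out.

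The main Serpina1c probe set gave a similar picture at a smaller size. Serpina1c is a member of the alpha-1-antitrypsin family of elastase inhibitors, which in mice is encoded by several near-identical genes. Its values were 1061.9, 1156.3 and 876.7 in controls and 2371.4, 2241.2 and 1868.1 in CF. The lowest CF value was 1.62 times the highest control value, and the log2 difference was 1.07 ± 0.18 (SE). The second Serpina1c probe set read 46.7, 29.7 and 38.1 in controls and 112.1, 62.6 and 29.2 in CF, so its groups overlapped and 4 of its 6 values lay under the floor of 47.6 below which values were set level.

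How far the Serpina1c signal belongs to that gene cannot be read from these probe sets. The name of the brighter probe set carries the suffix that marks probes shared within a sequence family, as do those for Serpina1b and Serpina1e. The probe set for Serpina1b read 194, 94.1 and 229.4 in controls and 407.6, 179.9 and 220.8 in CF (log2 difference 0.65 ± 0.48, adjusted p = 0.82 in limma), and that for Serpina1e, too dim to be tested, 54.9, 102.7 and 108.3 against 190.8, 189.2 and 83.3. Probe sets annotated to several Serpina1 genes did not share one direction: those for 3 and 4 of the genes differed by 0.18 ± 0.39 and 0.47 ± 0.49, and that for 5 of them by -0.50 ± 0.29 (adjusted p = 0.95, 0.88 and 0.76 in limma).

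Itih4 encodes a heavy chain of the inter-alpha-trypsin inhibitor family and is cleaved by plasma kallikrein in humans. It read 1413.9, 733.4 and 1340.4 in controls and 3550, 4804.9 and 3341 in CF. The groups did not overlap, with the lowest CF value at 2.36 times the highest control. The log2 difference was 1.79 ± 0.27 (SE), or 3.45-fold, and was 1.48 without control replicate 2.

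Kng1 encodes kininogen, the precursor from which kallikreins release bradykinin. Its intensities were 408.7, 614.2 and 477 in controls and 1401.1, 1815.4 and 890.5 in CF. The CF values ranged 2.04-fold and the lowest stood 1.45 times above the highest control, the narrowest gap among the tested probe sets. The log2 difference was 1.41 ± 0.29 (SE), or 2.66-fold, with 1.69 without CF replicate 3 and 1.18 without CF replicate 2.

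Cp encodes ceruloplasmin, the copper-bearing ferroxidase of plasma. Its control values of 46.4, 19.7 and 37.9 were all under the floor, and its CF values were 630.7, 597.9 and 160. All 3 CF values were above the filter on dim probe sets and no control value was, so Cp was tested through the CF group alone and had to differ. Its log2 difference was 3.04 ± 0.60 (SE) on floored values. Without a floor it was 3.59, and with the floor raised to the 40th percentile, 140.2, it was 1.48, so its size rests on how dim values are treated.

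Ahsg encodes fetuin-A, a binder of calcium phosphate whose plasma level falls during acute inflammation in humans. It read 75.2, 95.4 and 84.5 in controls and 292, 118.9 and 148.4 in CF. The CF values lay above the controls, by 1.25 times at the nearest, but only 2 of the 6 arrays exceeded the filter of 140.2. Its difference of 1.03 on the log2 scale therefore comes from values near the dim end of the array and has no fitted error.

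**Figure D1:**
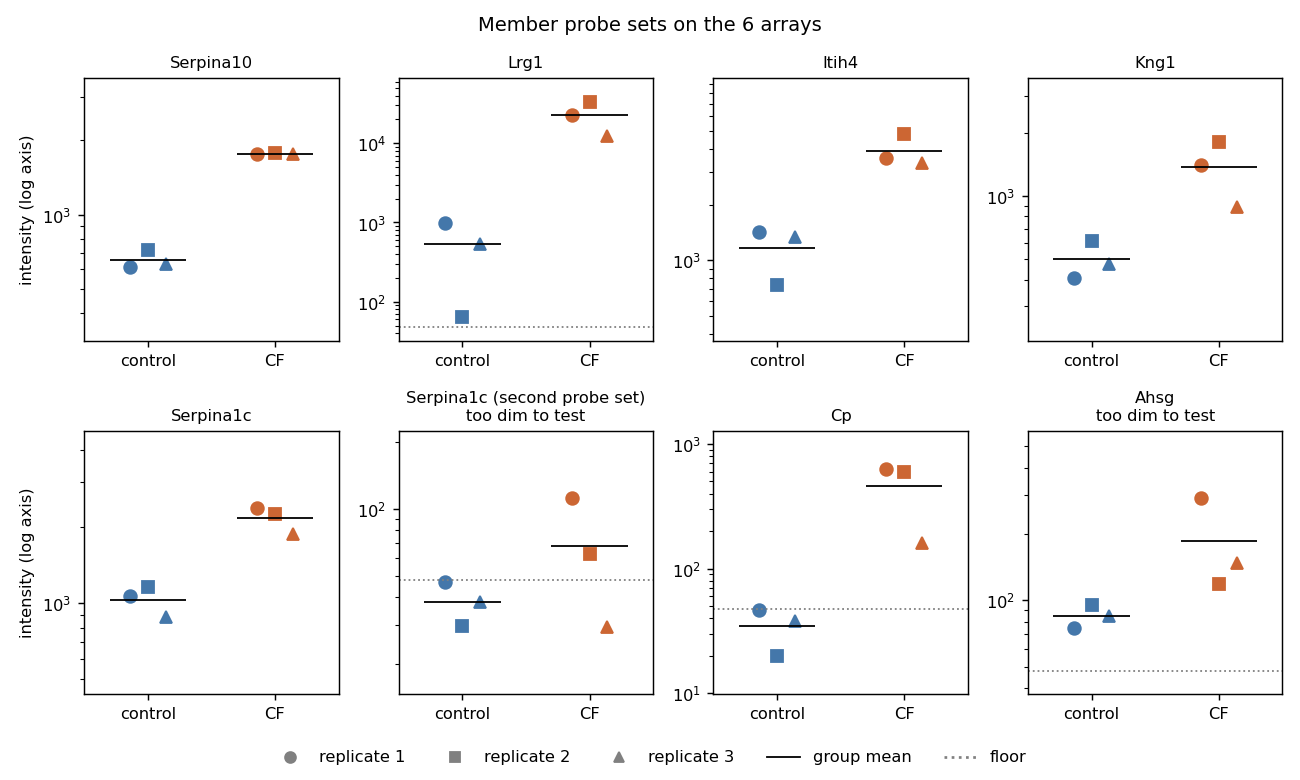
Intensity (log axis) of the 8 probe sets of the 7 genes on the 3 control and 3 CF arrays, with replicates 1 to 3 as symbols, the group mean as a bar and the floor of 47.6 as a dotted line where it is in range. In 7 of the 8 panels all CF points lie above all control points, and in the second Serpina1c panel they overlap.

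In 7 of the 8 probe sets the CF and control values did not overlap. All 6 tested ones had all 3 CF values above all 3 controls, and 7.37% of all tested probe sets did. In limma 1 of the 6 tested probe sets, that of Serpina10, passed an adjusted p of 0.05, and 0.0646% of all tested probe sets did. All 6 differed by at least 1 on the log2 scale, against 2.77% of all tested probe sets. Since the genes were chosen on this contrast, none of these counts is evidence about them. The Serpina10 call (adjusted p = 0.023 in limma) was lost without control replicate 1 or 3, with p of 0.096 and 0.11, and without CF replicate 1, 2 or 3, with 0.18, 0.17 and 0.063. Over all tested probe sets limma called 5, against 10 with the replicate block.

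The genes differed in how the mice ranked within a group. CF replicate 3 had the lowest CF value in 5 of the 6 tested probe sets, Serpina10 being the exception, against 35.3% of all tested probe sets and 40.9% of the 570 whose CF values all exceeded the controls. In Lrg1, Itih4 and Kng1 the highest CF value was that of replicate 2, and in Serpina1c and Cp that of replicate 1. Within controls, Lrg1 and Itih4 ran from replicate 1 through replicate 3 to replicate 2, and Cp, under the floor on all 3, has no order there, while Serpina10, Kng1 and Serpina1c were highest in replicate 2.

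Arrays of the same title suffix in the 2 groups deviated weakly together (correlations of 0.23 to 0.26), and were read as pairs for description only. Within pairs, the Serpina10 ratio of CF to control was 2.86, 2.47 and 2.79 for replicates 1, 2 and 3, and that of Serpina1c was 2.23, 1.94 and 2.13, so these 2 genes kept nearly the same ratio in each pair. The Lrg1 ratio was 23.1 in the pairs of replicates 1 and 3 and 515 in that of replicate 2, which held both the lowest control and the highest CF value. That control value of 63.9 is under the filter of 140.2 and near the floor, so the size of the ratio is poorly fixed. Itih4 followed the same order, at 2.51, 6.55 and 2.49. The Kng1 ratio was 3.43, 2.96 and 1.87, and that of Ahsg 3.88, 1.25 and 1.76.

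**Figure D2:**
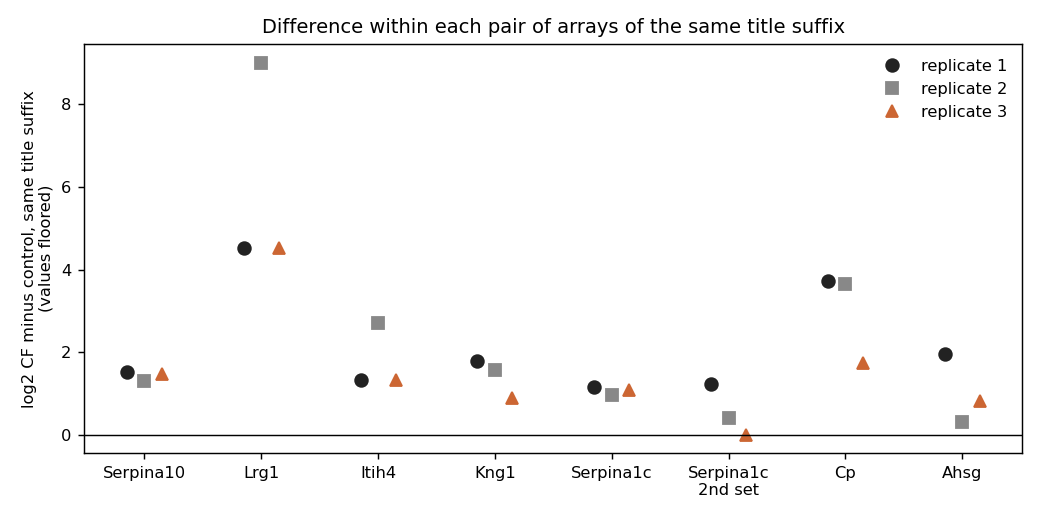
Log2 difference (CF minus control, values under 47.6 set to it) between the arrays of the same title suffix, for each probe set, with replicates 1 to 3 as symbols. Serpina10 and the main Serpina1c probe set cluster tightly, while the pair of replicate 2 stands apart for Lrg1 and Itih4 and that of replicate 3 lies lowest for Cp and Kng1.

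Other genes of the same pathways, in 11 lists chosen with earlier results of these data known, were spread on both sides of 0. Of 122 tested genes 59 were higher and 63 lower in CF, with a median log2 difference of -0.06, against 0.00 over all tested probe sets. In limma 0 of the 122 passed an adjusted p of 0.05 and 17 had an unadjusted p under 0.05, 9 of them higher and 8 lower. These 17 are 13.9% of the list genes, while 7.38% of all tested probe sets had such a p. Only Socs3 was higher by at least 1 on the log2 scale, which is 0.82% of them.

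Of clade A serpins, the clade of Serpina10 and Serpina1c, 4 further genes could be tested, 3 higher and 1 lower (median 0.19), and 0 passed in limma or had an unadjusted p under 0.05. Serpina3n, an inhibitor raised in many inflamed tissues, differed by -0.40 ± 0.39, and Serpina6, the corticosteroid carrier that directly neighbours Serpina10 on chromosome 12, by 0.15 ± 0.38. Of 9 other serpins, 3 were higher and 6 lower, led by the complement inhibitor Serping1 at -0.89 ± 0.29 (adjusted p = 0.51) and the intracellular Serpinb6a at 0.53 ± 0.18 (adjusted p = 0.56). Among 9 tested coagulation and fibrinolysis genes the median was -0.13. Of the untested genes of this list, F2 and F13b are named because all their CF values lay above the controls. F2, which encodes prothrombin, was too dim overall to be tested but had the dim controls seen for Cp. It read 40.6, 33 and 14.9 in controls, all under the floor, and 296.4, 120.4 and 249.7 in CF. F13b, a factor XIII subunit, was also untested, with 15, 67.9 and 58.6 against 141.7, 136.3 and 74. Factor X, the target of Serpina10 once activated, is encoded by F10, whose brighter probe set read 101.5, 300.4 and 112.5 in controls and 63.2, 216 and 192.9 in CF (-0.13 ± 0.64, adjusted p = 0.98). Proc, the anticoagulant protein C, differed by 0.46 ± 0.21 (adjusted p = 0.69).

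The partners of Kng1 were measured unevenly. Klk1 encodes the tissue kallikrein that cuts kininogen. The name of its brighter probe set carries the suffix that marks probes shared within a sequence family. This probe set gave 62524.7, 75851.5 and 68091 in controls against 68826, 79062.3 and 75127.8 in CF, a difference of 0.11 ± 0.15 (adjusted p = 0.91). The other Klk1 probe set, untested, gave 67.5, 128.7 and 139.5 against 688.7, 714.5 and 138.4, so the 2 probe sets disagree and CF replicate 3 stays at the control level. The bradykinin receptor Bdkrb1 differed by -0.15 ± 0.19 (adjusted p = 0.91), and Bdkrb2 and the plasma kallikrein Klkb1 were under the floor on all arrays. Of the 7 tested genes of this system, 4 were higher and 3 lower (median 0.11), with Agt, the angiotensin precursor, at -1.09 ± 0.46 (adjusted p = 0.67).

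The relatives of Itih4 were measured at different levels, and none passed in limma. Itih3, its direct neighbour on chromosome 14, read 253.9, 177.9 and 216.5 in controls and 308.8, 300.5 and 188.8 in CF (0.28 ± 0.34, adjusted p = 0.90), and Itih2 differed by -0.14 ± 0.22 (adjusted p = 0.93). Itih5, a further heavy chain gene, read 799.7, 386.1 and 593.1 in controls and 428.2, 415.7 and 239.4 in CF, with overlap (-0.70 ± 0.35, adjusted p = 0.70). Itih1, and the light chain precursor Ambp, were under the floor on all arrays. Among 7 tested genes of these inhibitors and of hyaluronan metabolism, 1 was higher and 6 were lower (median -0.30), led by the hyaluronan synthase Has2 at -1.48 ± 0.53 (adjusted p = 0.59).

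For Cp and iron, 16 genes of copper and iron handling were tested, 6 higher and 10 lower (median -0.13). Those of smallest p in limma were the metal-binding Mt1, Hamp, which encodes hepcidin, and the haemoglobin scavenger Hp. They differed by 0.37 ± 0.13, -1.18 ± 0.51 and -1.03 ± 0.45 (adjusted p = 0.58, 0.67 and 0.67). Hamp read 1372.3, 914.6 and 1376.8 in controls and 407.3, 271.9 and 1333.2 in CF, with overlap. Mt2, also metal-binding, differed by 0.53 ± 0.24 (adjusted p = 0.67). Heph, the membrane-bound relative of ceruloplasmin, read 33.4 to 84.1 over the 6 arrays and was too dim to be tested. Of 3 tested genes of the fetuin, cystatin and calcification list, 1 was higher and 2 were lower, with Cst3, the main secreted cystatin, at -0.18 ± 0.17 on its brightest probe set (adjusted p = 0.88) and 0.18 ± 0.21 on another (adjusted p = 0.90). Hrg, which lies with Ahsg and Kng1 in a cluster of cystatin relatives on chromosome 16, was likewise untested, with 24, 33.9 and 16.6 in controls against 51, 55.7 and 25.5 in CF. Proz, Kng2, Fetub, Slc40a1, Serpina1a and Serpina1d have no probe set of their own symbol here.

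Of the receptors through which LRG1 acts on TGF-beta signalling in mice, 2 could be tested and 0 passed in limma. Eng, the endothelial co-receptor endoglin, read 1243.4, 991.2 and 996.2 in controls and 423.5, 689.8 and 866.4 in CF, without overlap (-0.76 ± 0.28, adjusted p = 0.60). Acvrl1 overlapped between the groups on each of its probe sets. It differed by -0.40 ± 0.25 on the brightest and by -0.31 ± 0.28 and -0.21 ± 0.31 on the others (adjusted p = 0.78, 0.85 and 0.92). Tgfbr1 was too dim to be tested, and Tgfbr2 was under the floor on all arrays. Of 16 tested genes of this list, 6 were higher and 10 lower (median -0.18). Eng is itself among the 11 endothelial markers. The other 10 summed to 1856 to 2356 in controls and 1573 to 1747 in CF, and the part of endothelial content in the Eng and Acvrl1 values was not tested.

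The IL-6 and STAT3 list, which also holds NF-kappaB, TNF and IL-1 genes, was the most one-sided of the 11. Of its 16 tested genes 15 were higher in CF and 1 was lower, with a median of 0.39, though 0 passed in limma and 4 had an unadjusted p under 0.05. Over all tested probe sets 50.1% were higher and 7.38% had such a p. Socs3, the feedback inhibitor that STAT3 induces, read 129, 54.5 and 201 in controls and 491, 348.2 and 467.6 in CF, without overlap (1.94 ± 0.49, adjusted p = 0.30). Its values in control replicates 1 and 2 were under the filter of 140.2, and that of replicate 2 was near the floor. The size of the Socs3 difference therefore rests partly on dim control values. The receptor chain Lifr differed by 0.56 ± 0.18 (adjusted p = 0.51), and Socs2 by 0.80 ± 0.32 (adjusted p = 0.65). Il6 itself was under the floor on all arrays. Among 16 tested liver and pancreas transcription factors, 10 were higher and 6 lower (median 0.19), with Cebpd, a C/EBP factor of the acute phase, at 0.89 ± 0.34 (adjusted p = 0.63).

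Of 19 further hepatocyte plasma proteins, 7 were higher and 12 lower (median -0.25), and 0 passed in limma, with 4 at an unadjusted p under 0.05. Those of smallest p were Igfbp4, an IGF-binding protein, at -1.02 ± 0.25 (adjusted p = 0.26), Azgp1, a zinc-binding glycoprotein, at 0.81 ± 0.28 (adjusted p = 0.55), and the complement factor Cfb at -1.16 ± 0.48 (adjusted p = 0.67). Azgp1 was very even in controls, at 232.7, 229.5 and 233.8, and read 404.4, 512.9 and 325.4 in CF. Among the untested genes of this list, Orm1 and Mbl2 had all CF values below the controls, and Apcs had all above. Orm1 read 588.2, 118.6 and 131.6 in controls against 76.6, 26.2 and 9.5 in CF. Mbl2 read 114, 158.8 and 106.4 against 19.5, 46.7 and 44.2, and Apcs 33.9, 39.6 and 31.4 against 102, 66.8 and 88.2.

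**Figure D3:**
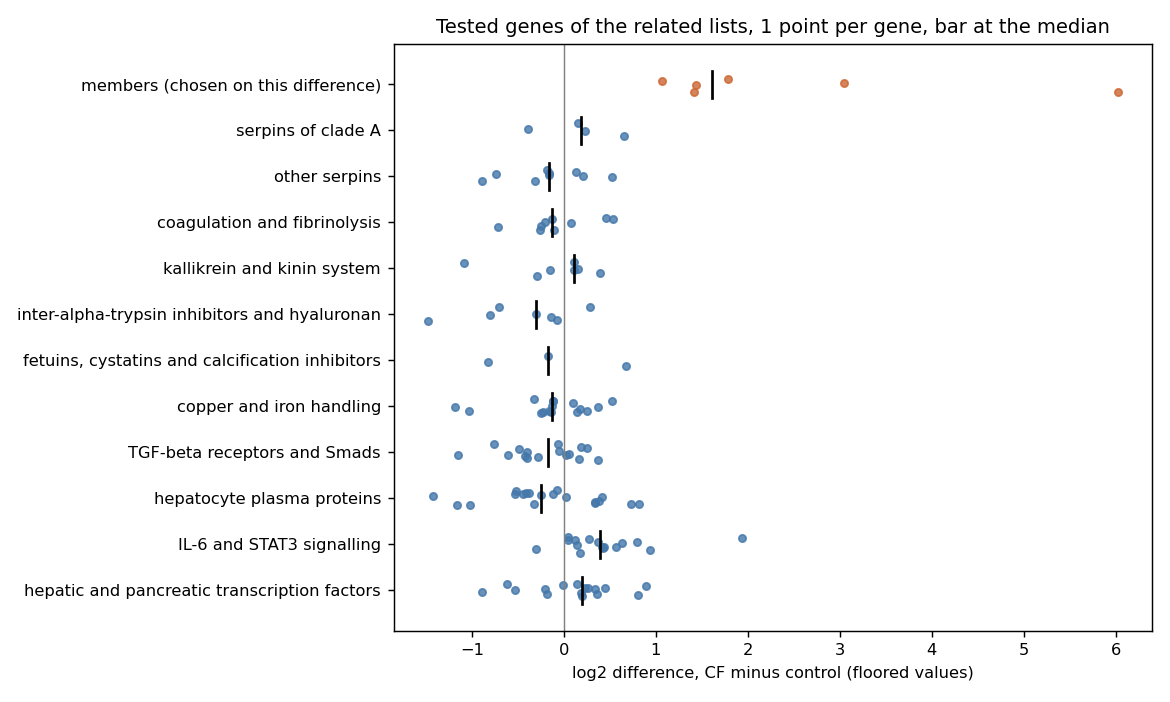
Log2 difference (CF minus control) of each tested gene in the 11 related lists, below the 6 tested probe sets of the plasma protein genes, with a bar at each median. The plasma protein genes, chosen on this difference, lie at 1.07 or more, while the list medians run from -0.30 to 0.39 and 1 of the 122 related genes, Socs3, lies above 1.

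The markers of hepatocytes, the usual source of these proteins, overlapped between the groups. The summed intensity of 19 hepatocyte markers was 3001 to 5349 in controls and 2922 to 4390 in CF. Alb, the most abundant plasma protein, read 480.9, 650.4 and 462.4 in controls and 337.5, 403 and 541.1 in CF. Ttr, also made in islets, was lower on all CF arrays, at 257.3, 231.9 and 270.6 against 345.4, 409.9 and 347. The brightest of the 19 was Cyp2e1, lower on average in CF but with overlap (-0.60 ± 0.46, adjusted p = 0.82 in limma). It read 1989.5, 775.3 and 873.6 in controls and 1363, 579.5 and 487.8 in CF. The markers Fgb and Cyp3a11 were under the floor on all arrays, Apoa1 read 38.5 to 81.6, and no marker was listed at 0. Hpd, a tyrosine-degrading liver enzyme and the hepatocyte marker of smallest p, went the other way, at 201.4, 252.2 and 159.5 against 251.9, 499.5 and 453.3 (0.94 ± 0.36, adjusted p = 0.62). Of 9 tested hepatocyte markers 3 were higher and 6 lower (median -0.32).

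Some markers of other cells separated the groups, though limma called 0 genes of any marker list. The summed intensity of 14 adipocyte markers reached 22000, 6648 and 11189 on the control arrays against 7576, 5273 and 5194 for CF, with overlap. Lrg1 and Itih4 had the same order of the control arrays as this sum. So had the macrophage, lymphocyte, stellate cell, mesothelial and smooth muscle sums. On the CF arrays the adipocyte sum was highest in replicate 1, while Lrg1 and Itih4 were highest in replicate 2. The sums of 4 mesothelial markers (1967 to 2211 against 1506 to 1626) and 8 smooth muscle markers (3278 to 4519 against 2638 to 2850) were lower in CF without overlap. The same held for 11 endothelial markers (2853 to 3599 against 2038 to 2440). Islet marker sums varied widely within both groups, at 20071, 79320 and 54541 against 23128, 36768 and 60595. Acta2, the smooth muscle actin gene and the marker gene of smallest p, read 1006.8, 330.4 and 589.4 against 73.1, 98.7 and 76.7 (-2.82 ± 0.44, adjusted p = 0.082 in limma). Of tested macrophage markers 3 were higher and 10 lower (median -0.77), of stellate cell and fibroblast markers 2 and 14 (-0.50), and of lymphocyte markers 3 and 8 (-0.45). Of 12 tested duct cell markers 10 were higher and 2 lower (median 0.28). The sum of the duct cell markers was 23436 to 34783 in controls and 32256 to 37956 in CF, with overlap. Of the 12, 4 had all CF values above the controls, against 7.37% of all tested probe sets, and 0 had all below. Elf3, the duct marker of smallest p, read 815.6, 919.7 and 842.8 against 1578.3, 1722.8 and 1574.8 (0.92 ± 0.16, adjusted p = 0.11 in limma). Neutrophils store the Lrg1 protein in granules, and their 12 markers summed to 7853 to 12541 in controls and 7811 to 9142 in CF. Most of this sum came from Csf3r, at 7630.3, 9250.6 and 5736.2 against 5799.8, 5166.2 and 7265.7. Among 7 tested neutrophil markers 2 were higher and 5 lower (median -0.17). The neutrophil gene S100a8, untested, gave 473.5, 123 and 133.7 against 154.6, 72.4 and 26.1. Ly6g, also untested, gave 47.5, 73.1 and 36.8 against 102.6, 36.5 and 85.9. In whole-tissue RNA, fewer cells of a type and less RNA per cell cannot be told apart, and the part of cell composition in the 7 genes was not tested.

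**Figure D4:**
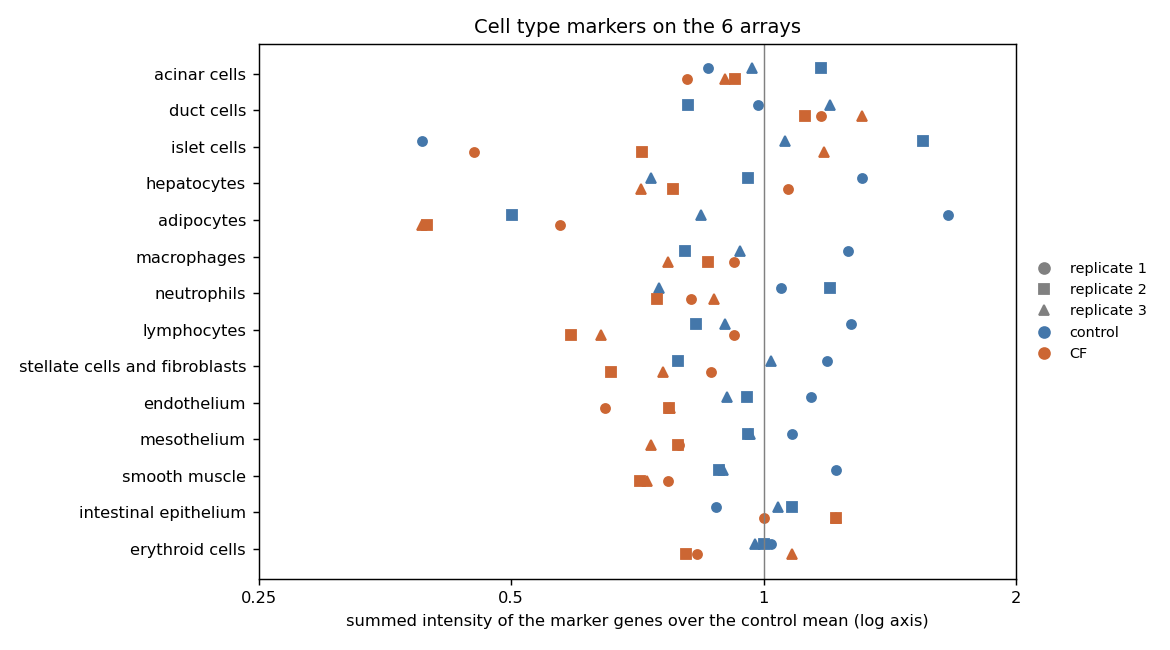
Summed intensity of the markers of each cell type on the 6 arrays, divided by the mean of the 3 controls (log axis), with controls and CF in 2 colours and replicates as symbols. Hepatocyte sums overlap between the groups, islet and adipocyte sums spread widely among controls, and mesothelial, smooth muscle and endothelial sums are lower in CF without overlap.

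Genes next to the 7 on their chromosomes gave no common direction. Within 4 protein-coding genes on each side, 19 probe sets of 17 genes could be tested. Of these probe sets 10 were higher, 8 were lower and that of Ubxn6 differed by 0.00 (median 0.05); 0 passed in limma, and only Mydgf, near Lrg1, had all CF values above the controls, at 1657.7, 1730.9 and 1685.9 against 1450.9, 1360.6 and 1643.9. Adipoq, the fat hormone gene on the Kng1 side of the chromosome 16 cluster, read 5591, 186.6 and 1898.8 in controls and 720.9, 54.2 and 58.2 in CF.

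The genes whose pattern over the 6 arrays was nearest to the mean pattern of the 6 tested probe sets are given with the root mean square distance between standardised log2 profiles, where 0 is identity. They were chosen for this likeness, so it is not tested. Srsf10, Ptpn2 and Trabd had all control values under the filter of 140.2 and were tested through the CF group alone, and 2 of the 3 Srsf10 controls were under the floor, so its pattern and size rest on floored values. Srsf10, a splicing factor, was nearest at 0.074, with 32.5, 49.1 and 40.4 in controls and 285.7, 313.1 and 205.2 in CF; its other tested probe set differed by 0.85 ± 0.28 on the log2 scale, against 2.46 ± 0.48. Ptpn2, a phosphatase that acts on JAK and STAT proteins, followed at 0.104, with 111.2, 100 and 104.6 against 211.1, 256.5 and 192.3. Vmp1, an endoplasmic reticulum protein of autophagy, stood at 0.109, with 1724.9, 1652.8 and 1435.3 against 4473, 4943.4 and 3241.7. The next were Lgalsl, Trabd and the sodium pump subunit Atp1b3, at 0.134, 0.158 and 0.162. Standardised profiles leave out the size of a difference, and the log2 differences of these genes were 0.30 ± 0.30, 1.04 ± 0.35 and 0.64 ± 0.16. That of Lgalsl was thus no larger than its SE (adjusted p = 0.88 in limma). The plasma protein genes themselves lay at 0.194 for Cp to 0.31 for Lrg1, since Lrg1, Itih4 and Kng1 each depart from their shared mean.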

How the data were processed

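Total RNA from whole pancreas was extracted with TRIzol, per the labels' protocols, and the deposited values are linear intensities, 1 per probe set and array; no label or header says how the authors made or scaled them. Means after trimming 2% at each end were 500.27 to 500.3 on all arrays, so they were taken as scaled. Probe sets were named by the platform annotation, updated to GRCm38.p6 RefSeq symbols.

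Values under the pooled 20th percentile (47.6) were raised to it and log2 was taken. Leaving out 66 control probe sets and those without at least 3 arrays above the 40th percentile (140.2) left 7739. CF and control were compared with limma 3.58.1 in R 4.3.3 (lmFit, eBayes with trend, Benjamini-Hochberg over all 7739, threshold 0.05); every SE and adjusted p is from this fit. It was tested on simulated data. Lists use the brightest probe set per gene.

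The 7 genes and all lists were chosen with earlier results of these data known. Named beside them are, by a stated rule, their partners and neighbours, list genes of smallest p or called, and the 6 of nearest pattern; others were chosen after their values were seen. Deviations from group means correlated at 0.23 to 0.26 between arrays sharing a title suffix and at -0.18 to -0.05 otherwise. Since deviations cancel out within a group, positive values in the first set make the second lean negative. Arrays of one suffix were read as pairs for description only, and whether they are true pairs was not tested. The unblocked fit is the main one. Alternatives covered scaling, floor, filter, variance model, weights, the replicate block and leaving out each array.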

Additional observations from a re-analysis of the deposited data

How the results depend on the processing

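All 89 log2 differences of the 6 tested plasma protein probe sets under the 15 alternatives were above 0, and 88 lay within 1 SD of the reported value; the exception was Cp at 1.48 with the floor at the 40th percentile. The number of probe sets limma called, 5 as reported, was 10 with that floor, 0 with no filter (773 at an unadjusted p under 0.05), 3 with no intensity trend, 12 with array weights and 10 with the replicate block, and ran from 1 to 11 when single arrays were left out: 1 without CF replicate 1 or 2, 8 without CF replicate 3 and 11 without control replicate 2. The cause was not tested. Serpina10 lost its call without control replicate 1 or 3 or any CF replicate, with no filter and with no trend (adjusted p up to 0.18), and kept it with the block at 0.041. Lrg1 was called with the higher floor, with array weights, and without control replicate 1 or 2, and Itih4 with array weights; their adjusted p over all alternatives ran from 0.0064 to 0.41 and from 0.042 to 0.40. The count of related genes called was 0 under every alternative run. The block changed no call among the 6 probe sets or the 122 related genes. Signal over background limits Cp, Ahsg, the second Serpina1c probe set and the Lrg1 value of control replicate 2. It also limits the Socs3 values of control replicates 1 and 2.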
